A study of Mus musculus with 2 samples.

Results

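The genes described here are the insulin-like growth factor (IGF) ligands Igf1 and Igf2, the receptors Igf1r and Igf2r, and the binding protein genes Igfbp2, Igfbp3, Igfbp4, Igfbp5, Igfbp6 and Igfbp7. They were taken by name, as a family. All 10 were among the 17809 genes of the wild-type library, and 8 were among the 15972 genes of the reporter library, where Igf2 and Igfbp2 were not listed. The study profiled single cells of the mouse colon to describe the fibroblasts around the crypt. The wild-type library holds epithelial and mesenchymal colon cells of C57BL/6 mice, sorted with antibodies to EpCAM and CD45 and prepared with version 3 of the 3′ kit. The reporter library holds colon mesenchymal cells of Pdgfra-H2B-eGFP mice, in which the Pdgfra locus drives a nuclear green fluorescent protein, sorted for that fluorescence and prepared with version 2 of the kit. Cells came from adult female mice, several animals were pooled in each library, and no agent was given. Each library is 1 sample and no cell is mapped to a mouse. No difference was therefore tested, and the intervals on shares of cells cover counting error only. Genotype, sort, kit and depth differ together between the libraries and cannot be told apart.

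IGF1 and IGF2 are secreted growth factors that signal through the receptor tyrosine kinase IGF1R, while IGF2R binds IGF2 and carries it to the lysosome. The IGF binding proteins hold the ligands outside the cell, prolong their life and limit or direct their access to the receptor, and secreted proteases such as PAPP-A release the ligand by cutting them. In the intestine, mesenchymal IGF is known as a growth signal for the crypt epithelium.

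The wild-type table holds 7495 cells with a median of 8972 corrected counts (6120 to 16389) and 2804 genes per cell. The reporter table holds 4409 cells with a median of 3150 corrected counts (2314 to 4432) and 1381 genes. The whole numbers in these tables are taken to be transcript counts that the authors adjusted for the sequencing depth of the cell (corrected counts), as read from the values and the methods, and every level below is its mean per cell over a class. Clusters built without the IGF genes were named from marker genes. In the wild-type library they comprised 797 crypt top fibroblast (CTFs)-like, 1139 crypt bottom fibroblast 1 (CBFs1)-like and 558 CBFs2-like cells, 2476 epithelial cells and smaller classes of other stroma, and 685 cells (9.14%) stayed unnamed. In the reporter library 515 cells were CTFs-like, 2250 CBFs1-like and 853 CBFs2-like, and 627 fibroblasts could not be typed. All 13 CTFs markers were found in at least 10% of the wild-type CTFs-like cells, as were all 9 CBFs1 and all 10 CBFs2 markers in their classes. In the reporter library this held for 12 of 13, 7 of 9 and 10 of 10. These lists also named the clusters, so the shares describe the classes and are no independent check. The 10% mark is low, since 7 of 8 epithelial markers passed it in wild-type CTFs-like cells. Their summed mean there was 5.58, against 34.4 for the CTFs markers. Reporter CBFs1-like cells comprised 3 clusters, of which the largest (991 cells) was led by stress genes such as Sbno2 and Tnfaip3 and the smallest (557 cells) by the chemokines Cxcl5 and Cxcl9.

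**Figure D1:**
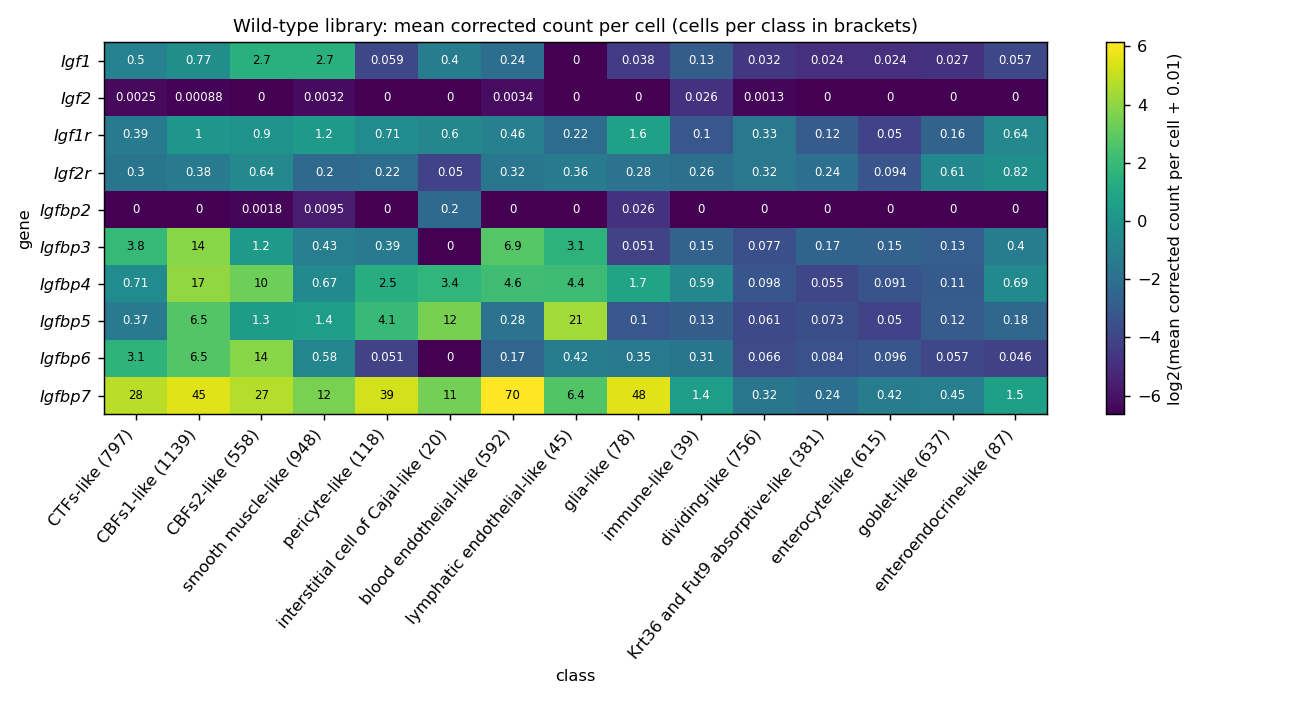
Mean corrected count per cell of each of the 10 genes (rows) in each named wild-type class (columns, cells in brackets), printed in each tile and coloured as log2 of the mean plus 0.01. Igfbp7 is bright across the stroma, from 6.42 in lymphatic to 70.3 in blood endothelial-like cells, Igfbp5 is brighter in lymphatic endothelial-like (20.7) and interstitial cell of Cajal-like cells (11.5), and Igf2 and Igfbp2 stay dark.

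Igf1, the main ligand detected, was highest in CBFs2-like (2.73 corrected counts per cell) and smooth muscle-like cells (2.73) of the wild-type library. CBFs1-like cells held 0.7735, CTFs-like cells 0.503 and blood endothelial-like cells 0.2365, and epithelial cells as a whole 0.0283. A count above 0 was found in 68.8% of CBFs2-like cells (95% interval 64.8 to 72.6) and in 75.4% of smooth muscle-like cells, against 25.3% of CTFs-like cells (22.4 to 28.5). Epithelial cells serve here as the background of free RNA, and 1.86% of them were above 0. They held a median of 9706 corrected counts and 3222 genes per cell, against 8477 and 2635 in fibroblasts, and the depth at which each was sequenced is not in these tables. Pericyte-like cells, at 2.54%, were close to that background, and none of the 45 lymphatic endothelial-like cells held a count, which allows a share of up to 6.67% with a count and does not limit the cells that express the gene. The reporter library had the same highest fibroblast class, with 1.515 corrected counts per cell for CBFs2-like, 0.574 for CBFs1-like and 0.538 for CTFs-like cells. The last values were close, with shares of 35.8% and 30.7%.

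Igf2, an imprinted fetal growth factor, was nearly undetected. Its highest mean in a wild-type class of at least 30 cells was 0.0256 corrected counts, in 39 immune-like cells. Only 3 of 2494 wild-type fibroblasts had a count above 0, and none of the 558 CBFs2-like cells did, which allows up to 0.538% of cells with a count.

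Igf1r, the signalling receptor, was spread over stroma and epithelium. Glia-like cells held 1.60 corrected counts per cell, smooth muscle-like cells 1.20, CBFs1-like cells 1.05 and CBFs2-like cells 0.903, whereas CTFs-like cells held 0.386. The share of cells above 0 was 57.7% (54.75 to 60.6) among CBFs1-like and 24.7% (21.8 to 27.9) among CTFs-like cells. Among epithelial classes the level was 0.644 in enteroendocrine-like cells, 0.335 in dividing-like cells, 0.159 in goblet-like cells and 0.0504 in enterocyte-like cells. The share fell in the same order, from 41.4% and 27.5% to 14.0% and 5.04%, at medians of 3720, 3406, 3290 and 2925 genes per cell. Thinned to 2000 corrected counts per cell, the shares were 13.8%, 6.48%, 3.14% and 1.79%.

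Igf2r, the clearance receptor, had a different order. Enteroendocrine-like cells were highest at 0.816 corrected counts per cell, followed by CBFs2-like cells at 0.638 and goblet-like cells at 0.609. The remaining wild-type classes of at least 30 cells lay between 0.383 (CBFs1-like) and 0.0943 (enterocyte-like). It was above 0 in 52.9% of enteroendocrine-like and 47.1% of goblet-like cells, against 8.94% of enterocyte-like cells. Among the fibroblast types of the reporter library Igf2r was likewise highest in CBFs2-like cells (0.163), and lowest in CTFs-like cells (0.0485).

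The binding protein genes carried most of the family's counts, and each had its own pattern. The kits count tags at the 3′ end of a transcript, so these counts do not scale with gene length, and shares among genes below are shares of tags. Igfbp7, which binds IGFs weakly and is also known as a vessel wall protein, was the most abundant, at 70.3 corrected counts per blood endothelial-like cell. Glia-like cells held 48.0, CBFs1-like cells 45.35, pericyte-like cells 38.9, CTFs-like cells 28.1 and CBFs2-like cells 26.6. It was above 0 in 99.9% of wild-type fibroblasts and 7.15% of epithelial cells. Within the blood endothelium the 494 cells led by Esm1 and Kdr held 79.4 and the 98 cells led by Selp and Madcam1 held 24.4. Igfbp3, the main carrier of IGF in blood, separated the same clusters, at 8.18 and 0.265 corrected counts per cell.

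Igfbp3 was highest in CBFs1-like cells, with 14.4 corrected counts per cell and 89.1% of cells above 0 (87.2 to 90.9). Blood endothelial-like cells held 6.87, CTFs-like cells 3.80 and CBFs2-like cells 1.22, of which 22.4% were above 0, against 3.07% of epithelial cells. Igfbp4, an inhibitor of IGF action that PAPP-A cuts, was high in both crypt bottom types, at 16.9 (CBFs1-like) and 10.0 (CBFs2-like), and low in CTFs-like cells at 0.705. The share of cells above 0 was 98.2% and 97.5% in the crypt bottom types and 29.0% (25.85 to 32.3) for CTFs-like cells, against 3.55% of the epithelium.

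Igfbp5, which binds to extracellular matrix, was highest in lymphatic endothelial-like cells, at 20.7 corrected counts per cell in 45 cells. The 20 interstitial cell of Cajal-like cells held 11.5, CBFs1-like cells 6.48 and pericyte-like cells 4.085, while blood endothelial-like cells held 0.280. The name of the Cajal-like class is weak, since 3 of 4 of its markers were found in at least 10% of its cells (summed mean 12.7) but 9 of 10 smooth muscle markers were as well (summed mean 70.95). CTFs-like cells held 0.366, with 7.90% of cells above 0 (6.13 to 10.0) against 2.10% of epithelial cells. Igfbp6, which prefers IGF2, was the most restricted to fibroblasts among the abundant binding protein genes. CBFs2-like cells held 14.4, CBFs1-like cells 6.51 and CTFs-like cells 3.12, and the next class, smooth muscle-like cells, held 0.583. Igfbp2 was nearly undetected, and among the 20 interstitial cell of Cajal-like cells, its highest class, 3 were above 0.

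**Figure D2:**
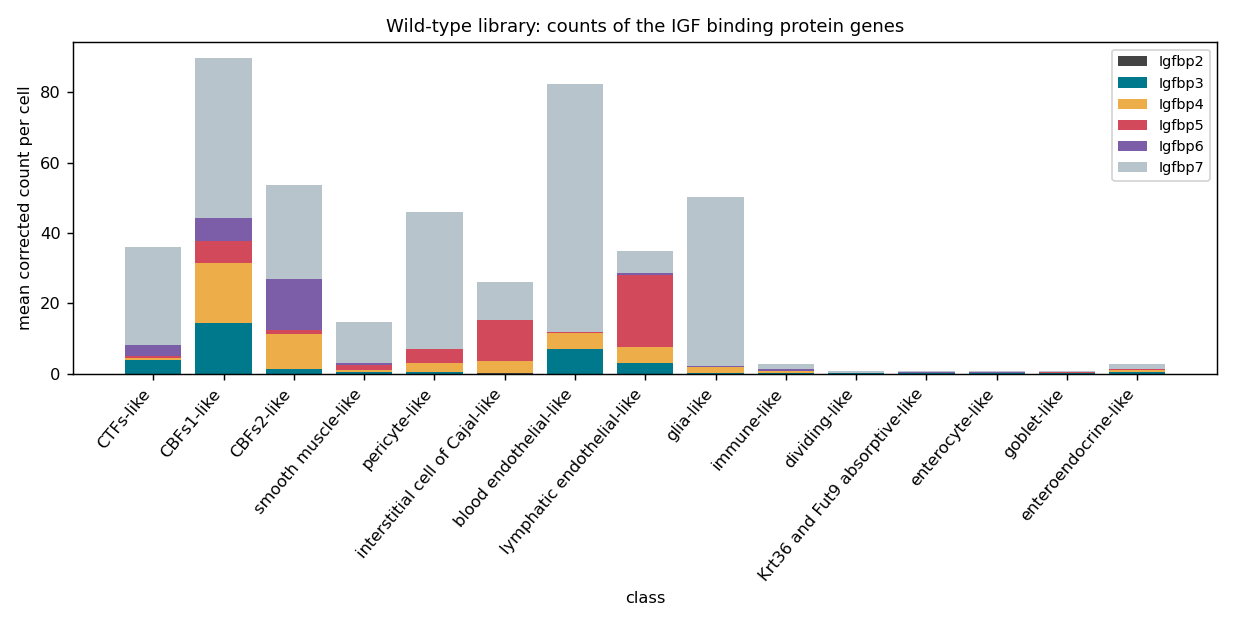
Mean corrected count per cell of the 6 binding protein genes in each wild-type class, stacked by gene. CBFs1-like (89.7) and blood endothelial-like cells (82.3) have the tallest bars, the former with visible parts of 5 genes and the latter mostly from Igfbp7.

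As a group, the binding protein genes summed to 89.7 corrected counts per CBFs1-like cell, 53.5 per CBFs2-like cell and 36.1 per CTFs-like cell. Igfbp7 gave 77.8% of these tags for CTFs-like, 50.55% for CBFs1-like and 49.7% for CBFs2-like cells. The remainder of the CBFs2-like tags was mainly Igfbp6 (26.9%) and Igfbp4 (18.8%), and of the CBFs1-like tags Igfbp4 (18.9%) and Igfbp3 (16.1%). Lymphatic endothelial-like cells differed from all other classes of at least 30 cells in that Igfbp5 gave the largest part (59.2%). At least 3 of the 6 genes were above 0 in 99.65% of CBFs1-like, 94.3% of CBFs2-like and 38.6% of CTFs-like cells. Thinned to 2000 corrected counts per cell, these shares were 92.6%, 66.7% and 17.2%. Reporter shares were 97.2%, 86.6% and 35.7% unthinned and 91.9%, 76.9% and 26.6% after the same thinning, although only 5 of the binding protein genes are in that table. Free RNA was not separated from these shares, and at least 3 were also above 0 in 57.5% of the 113 reporter immune-like and 17.65% of the 51 epithelial cells. Of those epithelial cells 25.5% were above 0 for Igfbp4 and 37.3% for Igfbp7, and free RNA and mixed cells cannot be told apart there.

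The first comparison asked how the fibroblasts that the study places at the crypt top differ from those at the crypt bottom. In the wild-type library 8 of the 10 genes passed the filter on low values (an average of the class means of at least 0.05) and 6 were at least 2-fold lower in CTFs-like than in CBFs-like cells. Of all 9585 genes that passed, 6.44% were lower and 5.09% higher by that rule. Igfbp4 had the lowest log2 ratio, -4.36 (0.705 against 14.7 corrected counts per cell), followed by Igfbp5 at -3.67 (0.366 against 4.77). Igfbp6 had a log2 ratio of -1.54, Igf1 -1.48, Igfbp3 -1.41 and Igf1r -1.35. Igf2r (-0.60) and Igfbp7 (-0.48) were within 2-fold. The median log2 ratio was -1.44 over the 8 genes and -0.03 over all genes that passed.

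In the reporter library the same comparison had 4 of 8 genes lower by 2-fold and none higher, beside 5.44% of 6561 genes lower and 5.97% higher. These were Igfbp4 (-3.89), Igfbp6 (-3.81), Igf1r (-1.36) and Igfbp5 (-1.21). Igfbp6 went from 1.385 corrected counts per CBFs-like cell to 0.0893 per CTFs-like cell, and Igfbp5 from 2.08 to 0.893. Against CBFs2-like cells alone, Igfbp5 was not lower in CTFs-like cells (0.741 and 0.893), and Igf1r was lower by less than 2-fold (0.168 and 0.0893). Igfbp3 was again higher in CTFs-like (2.93) than in CBFs2-like cells (0.453). A count of Igfbp6 was found in 6.60% of these CTFs-like cells against 5.88% of the reporter epithelial cells, and a count of Igf1r in 8.16% and 7.84%. For Igfbp4 the CTFs-like cells held 0.493 corrected counts per cell (32.4% above 0), against 2.37 (25.5%) in that epithelium. The CTFs-like values of Igfbp6 and Igf1r were thus near those of that epithelium, and the mean of Igfbp4 was lower. The size of the ratios of these genes therefore depends on a level that may be background, which was not tested. That epithelium is a weak measure of background. All 10 fibroblast markers were found in at least 10% of its cells (summed mean 18.9), and 16.2% of wild-type epithelial cells held a count of Igf1r. Igf1 (-0.62) and Igfbp3 (-0.39) did not reach 2-fold, and Igf2r lay just short of it at -0.98 and passed it once scaled to class totals (-1.09) or thinned to 2000 corrected counts (-1.01). The sizes depend on the clustering, since Igfbp4 was at -2.61 and Igfbp6 at -2.56 at a resolution of 0.8, where 123 cells led by Ptprr and Il1rl1 were also named CTFs-like. With 15 principal components they were at -1.84 and -2.43, and with the IGF genes kept among the clustering features at -1.69 and -2.46. Igf1r fell short of 2-fold at the finer resolution (-0.95), with 15 principal components (-0.64) and with those genes kept (-0.56). The median log2 ratio was -1.10 over the 8 genes and 0.17 over all genes that passed.

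**Figure D3:**
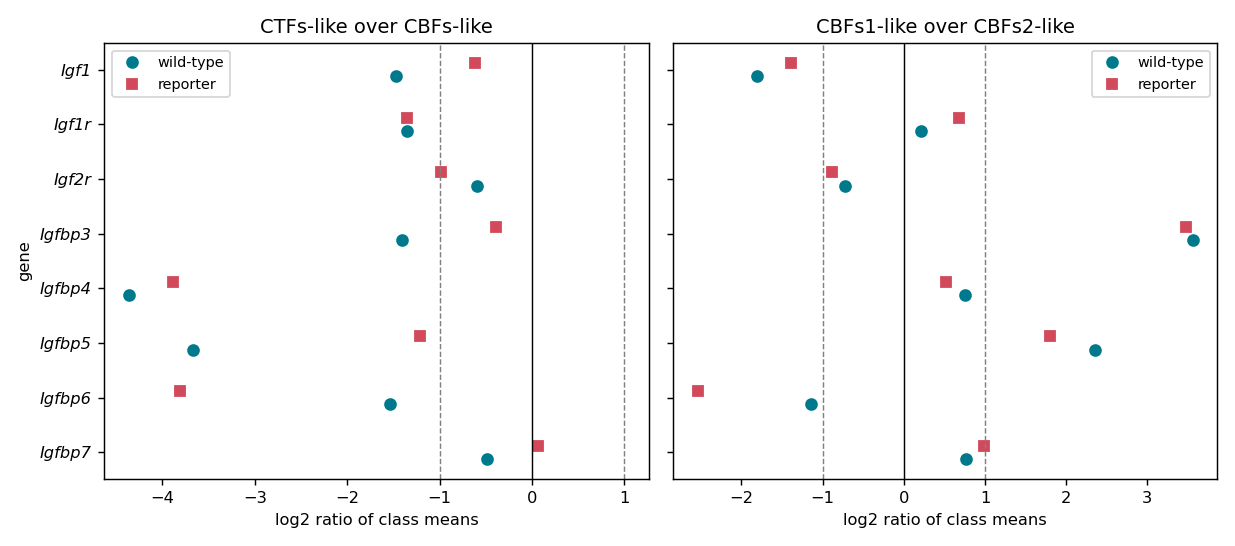
Log2 ratio of class means for 8 genes in the wild-type (circles) and reporter (squares) libraries, CTFs-like over CBFs-like on the left and CBFs1-like over CBFs2-like on the right, with dashed lines at 2-fold. In the clustering shown, Igfbp4 has the lowest value in each library on the left (-4.36 and -3.89), and Igfbp3 the highest on the right (3.56 and 3.47). With 15 principal components reporter Igfbp6 (-2.43) lies below Igfbp4 (-1.84) on the left.

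The crypt bottom types were compared next. In the wild-type library Igfbp3 (log2 ratio 3.56) and Igfbp5 (2.35) were higher in CBFs1-like than in CBFs2-like cells, and Igf1 (-1.81) and Igfbp6 (-1.14) were lower. These were 2 of 8 genes in each direction, beside 3.55% of 9636 genes higher and 5.4% lower. The reporter library gave the same 4 genes in the same directions, with log2 ratios of 3.47 for Igfbp3, 1.79 for Igfbp5, -1.38 for Igf1 and -2.54 for Igfbp6, beside 5.04% of 6214 genes higher and 3.41% lower. Igfbp3 stood at 5.12 corrected counts per reporter CBFs1-like cell and 0.4525 per CBFs2-like cell, and Igfbp6 at 0.590 and 3.48. Igfbp4, Igfbp7, Igf1r and Igf2r were within 2-fold in each library. The wild-type value of Igfbp6 fell short of 2-fold at a finer resolution (-0.94). Reporter Igfbp7 lay at the threshold (0.99) and passed it at that resolution (1.01) and with 15 principal components (1.00), and reporter Igf2r passed it once scaled to class totals (-1.02). The reporter fibroblasts that could not be typed held 5.47 of Igfbp3, 7.28 of Igfbp4 and 0.3445 of Igfbp6.

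**Figure D4:**
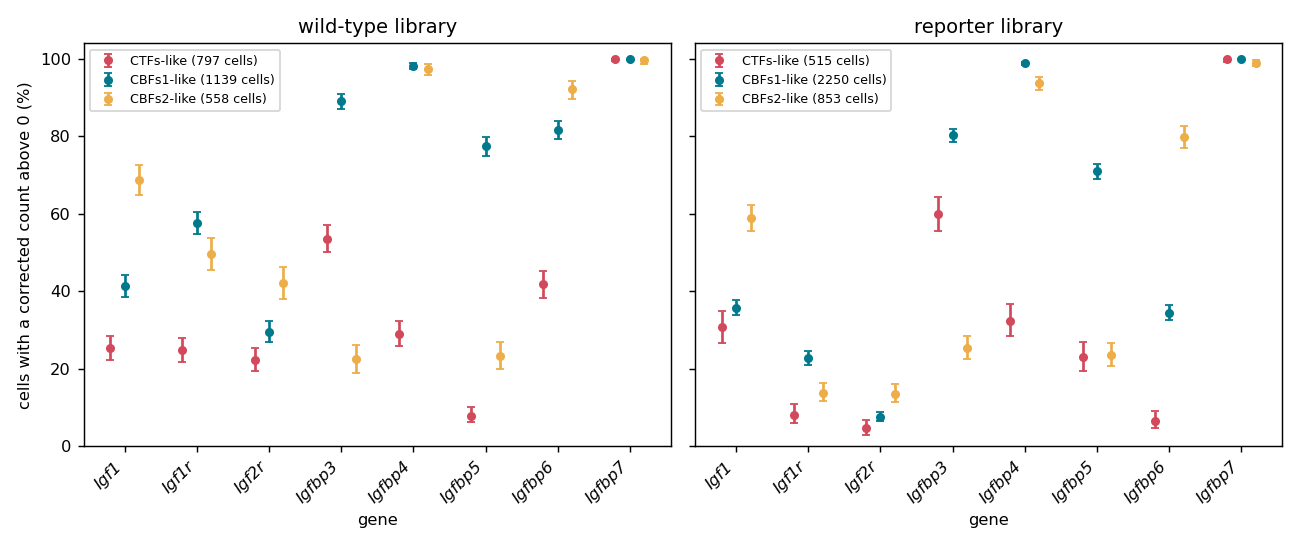
Share of cells with a corrected count above 0 for 8 genes in the 3 fibroblast types of each library, with exact binomial 95% intervals (counting error only) as bars. Igfbp3 and Igfbp5 are highest in CBFs1-like cells and Igf1 and Igfbp6 in CBFs2-like cells in each panel, and the panels differ in depth, so heights are to be read within a panel.

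The promoters of the 4 genes that separated the crypt bottom types in each library are shown for reference, from RefSeq (GRCm38.p6), each from 250 bases before to 50 after the start of a transcript. Capitals mark matches on either strand to the TATA box letters TATAAA, the GC box letters GGGCGG or the CCAAT box. Of 32851 mouse promoters of this length, 13.6% hold the TATA box letters, 35.7% those of the GC box and 37.4% those of the CCAAT box. Igfbp3 and Igfbp5, higher in CBFs1-like cells, have none of these letters in the window, at a GC content of 71.7% and 56.3%. Igf1 and Igfbp6, higher in CBFs2-like cells, each hold the CCAAT box letters (1 and 2 matches), at a GC content of 52.3% and 49.7%. Igfbp6 also holds the TATA box letters (1 match), on the opposite strand and not near the transcript start. Only exact letters were searched, at any position, so a match need not be a working element. Similar AT-rich stretches, such as that just before the Igfbp3 start, are not marked. The median GC content of all promoters is 52.7%, and these matches are a description. The transcript starts used lie 2846 bases (Igf1) and 176 bases (Igfbp6) from the annotated starts of the genes.
Igfbp3, chr11:7213874-7214173, minus strand: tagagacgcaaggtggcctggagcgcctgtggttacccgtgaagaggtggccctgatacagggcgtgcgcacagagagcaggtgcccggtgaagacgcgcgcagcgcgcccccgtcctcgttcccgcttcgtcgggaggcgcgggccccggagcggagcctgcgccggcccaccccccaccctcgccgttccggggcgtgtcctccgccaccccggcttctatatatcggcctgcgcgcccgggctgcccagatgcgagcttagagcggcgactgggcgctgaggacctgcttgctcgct
Igfbp5, chr1:72874816-72875115, minus strand: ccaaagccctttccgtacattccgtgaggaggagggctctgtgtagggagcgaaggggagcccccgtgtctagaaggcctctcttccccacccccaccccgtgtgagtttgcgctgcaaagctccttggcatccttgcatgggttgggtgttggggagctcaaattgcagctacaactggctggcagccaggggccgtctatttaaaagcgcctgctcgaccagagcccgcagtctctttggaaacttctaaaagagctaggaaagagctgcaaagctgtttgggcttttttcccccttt
Igf1, chr10:87860861-87861160, plus strand: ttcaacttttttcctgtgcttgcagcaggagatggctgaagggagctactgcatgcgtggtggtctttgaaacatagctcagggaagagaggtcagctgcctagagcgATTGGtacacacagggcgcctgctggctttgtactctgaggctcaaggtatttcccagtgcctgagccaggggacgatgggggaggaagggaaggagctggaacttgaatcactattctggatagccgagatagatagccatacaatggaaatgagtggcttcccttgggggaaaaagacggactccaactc
Igfbp6, chr15:102143936-102144235, plus strand: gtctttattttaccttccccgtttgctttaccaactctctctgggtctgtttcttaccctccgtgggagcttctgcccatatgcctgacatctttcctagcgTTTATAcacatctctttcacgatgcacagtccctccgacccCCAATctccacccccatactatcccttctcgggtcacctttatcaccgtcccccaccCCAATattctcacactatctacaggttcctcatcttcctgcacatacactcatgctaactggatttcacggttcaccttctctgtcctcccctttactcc

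Levels also varied among clusters of the same type at a resolution of 0.8. The 585 wild-type CTFs-like cells led by Fam180a and Cybrd1 held 0.817 corrected counts of Igfbp6 per cell, and the 225 led by Lpar3 and Dmp1 held 9.22. Igfbp4 was 0.332 and 1.78 in these clusters. The Igfbp6 level of the 225 cells was near that of all CBFs-like cells of the main clustering (9.11). The lower Igfbp6 of CTFs-like cells was thus that of the larger cluster and not of both. The 786 CBFs1-like cells led by Sfrp2 held 10.1 of Igfbp3 and 8.04 of Igfbp6, against 24.9 and 3.01 in the 333 led by Adamtsl2. The CBFs2-like clusters differed as well, with 3.04 of Igf1 and 16.1 of Igfbp6 in the largest (472 cells, a median of 2813 genes) and 0.635 and 3.93 in another (156 cells, 1729 genes). The third (35 cells, 2626 genes) held 0.943 of Igf1, 2.40 of Igfbp6 and 2.57 of Igfbp3. The cluster of 156 cells lay below the CBFs1-like cells led by Sfrp2 for Igf1 (0.735) and Igfbp6. It lay above the largest CBFs2-like cluster for Igfbp3 (4.72 against 1.19). At this resolution the pattern of these genes was thus that of the largest CBFs2-like cluster and not of every one. Together the CBFs2-like clusters hold more cells than the main CBFs2-like class (558), so some of their cells were not in that class. How many of the 156 cells were in it is not shown here. In the reporter library the 123 CTFs-like cells led by Ptprr and Il1rl1 held 4.15 corrected counts of Igfbp4 per cell against 0.499 in the other 515.

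**Figure D5:**
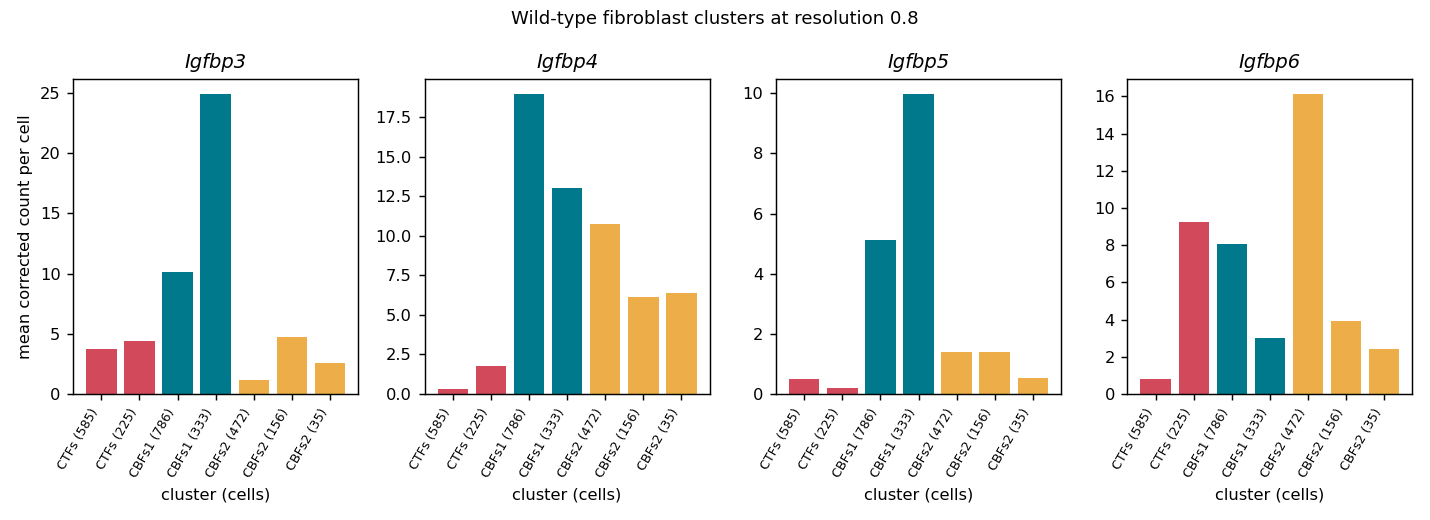
Mean corrected count per cell of Igfbp3, Igfbp4, Igfbp5 and Igfbp6 in the wild-type fibroblast clusters at a resolution of 0.8, coloured by type, with the number of cells in brackets. Each panel has its own axis from 0, and the Igfbp6 bars of the CTFs clusters (0.817 and 9.22) lie further apart than their Igfbp3 bars (3.78 and 4.40).

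By the GENCODE annotation of GRCm38, Igfbp5 (chr1:72857932-72874884, minus strand) and Igfbp2 (chr1:72824503-72852474, plus strand) are tail-to-tail neighbours with 5457 bases between them. The former reached 20.7 corrected counts per cell in a class of at least 30 cells and the latter 0.0256. Igfbp3 (chr11:7206086-7213923) lies 3539 bases from Igfbp1, which was not listed in either library. Igf1 lies at chr10:87858265-87937042, Igfbp4 at chr11:99041244-99054392 and Igfbp6 at chr15:102144362-102149511.

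Fibroblasts were then set against the epithelium of the same library. Of the 10 genes, 8 passed the filter and 7 were at least 2-fold higher in fibroblasts, beside 16.7% of 11225 genes higher and 33.5% lower. The log2 ratio was 6.44 for Igfbp6, 6.41 for Igfbp7, 6.37 for Igfbp4, 5.81 for Igfbp3, 5.25 for Igfbp5, 4.89 for Igf1 and 1.98 for Igf1r. Igf2r was close to even, at 0.415 corrected counts per cell in fibroblasts and 0.344 in the epithelium (log2 ratio 0.26). Scaling each class to its total moves the ratios of this comparison up by a median of 0.16 on the log2 scale. Part of the epithelial counts of the stromal members sat in a few cells. Of the 2476 epithelial cells 29 were called doublets, and these held 25.6% of the epithelial Igfbp7 and 30.4% of the Igfbp6 counts, but 3.50% of the Igf1r and 1.88% of the Igf2r counts.

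Within the epithelium the question was whether receptor genes differ between dividing and mature cells. Igf1r was the single member called, with a log2 ratio of 1.58 (0.335 corrected counts per dividing-like cell and 0.105 per mature cell, here enterocyte-like and goblet-like only), 1 of 7 that passed the filter. Among 10742 genes 16% were higher and 11.1% lower, so the members did not stand out here as a group. After thinning to 2000 corrected counts the ratio was 1.09, at class means that no longer passed the filter. Without the called doublets Igfbp3 (-2.26) and Igfbp7 (-1.10) were also called, as lower. With 15 principal components Igfbp7 was called lower as well (-1.755). Enteroendocrine-like cells, which are not part of the mature group, held more Igf1r than dividing-like cells (0.644). At a resolution of 0.8 most of the dividing-like class (478 of 756 cells) was named crypt base stem-like and held 0.395, while the 226 cells that stayed dividing-like held 0.248. Igf2r had a log2 ratio of -0.15.

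Endothelial cells, and smooth muscle-like and pericyte-like cells together, were each set against the fibroblasts of the wild-type library, so these comparisons and that with the epithelium share the same fibroblasts. In blood and lymphatic endothelial-like cells together 3 of 8 genes were lower and none higher, beside 16.9% of 9669 genes lower and 11.6% higher. These were Igfbp6 (-5.21), Igf1 (-2.31) and Igfbp4 (-1.15), of which Igfbp4 fell short of 2-fold when thinned to 2000 corrected counts (-0.98). Igfbp7 had a log2 ratio of 0.89 and Igfbp5 of -0.96. With 15 principal components no lymphatic class was found, and Igfbp5 was then at -3.28 and Igfbp7 higher at 1.19. In the 948 smooth muscle-like and 118 pericyte-like cells together Igf1 was higher (1.11) and 5 of 8 genes were lower, beside 5.86% of 9634 genes higher and 8.51% lower. The lower genes were Igfbp3 (-4.23), Igfbp6 (-3.75), Igfbp4 (-3.53), Igfbp7 (-1.28) and Igf2r (-1.01), of which Igf2r fell short of 2-fold in 6 other settings. The Igf1 level came from smooth muscle-like cells, since pericyte-like cells held 0.0593. The Igfbp7 call also came from smooth muscle-like cells, at 11.7, since pericyte-like cells (38.9) held more than fibroblasts (35.6).

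A list of 34 other genes of the pathway was read in the same way, of which 31 are listed for the wild-type library and 26 for the reporter library. Between CTFs-like and CBFs-like wild-type cells 22 passed the filter, 7 were lower and 2 higher, beside 6.44% and 5.09% of all genes. The lower genes included the secreted protease Htra3 (log2 ratio -3.22), the protease Adamts1 (-1.68) and the endocytic receptor Lrp1 (-1.40), and the higher ones included Pappa, which encodes PAPP-A (1.43). In the reporter library 18 passed and 3 were lower (5.44% of all genes), namely Htra3 (-1.98), Adamts1 (-1.66) and Lrp1 (-1.30). Between CBFs1-like and CBFs2-like cells 3 of 21 wild-type and 3 of 20 reporter genes were higher (3.55% and 5.04% of all genes). These were the growth hormone receptor gene Ghr (1.09 wild-type, 1.44 reporter), Pappa (2.01 and 1.08) and Htra1 (1.67 and 1.41). Reporter Pappa was above 0 in 6.36% of CBFs1-like and 2.70% of CBFs2-like cells, against 11.8% (4.44 to 23.9) of the 51 reporter epithelial cells. Its reporter ratio thus rests on low levels that may be background, which was not tested. That epithelium also held the fibroblast markers. Stc2, an inhibitor of PAPP-A, was lower in CBFs1-like cells (-3.39 and -2.06), as was Adamts1 (-2.17 and -1.37), and Irs2 was also lower in the wild-type library (-1.20). Over all genes 5.4% were lower in the wild-type library, and 3.41% in the reporter library.

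Fibroblasts exceeded the epithelium by 2-fold in 11 of 21 pathway genes (16.7% of all genes, and 33.5% lower), with Htra1 at 9.01 against 0.0925 corrected counts per cell and Htra3 at 4.92 against 0.0533, and were lower for Igf2bp2 (-1.98). Endothelial cells were higher than fibroblasts in 6 of 23 and lower in 12 (11.6% and 16.9% of all genes), with Cd93, a receptor for IGFBP7, at 2.20 against 0.00241 and Stc1 at 0.612 against 0.0160. Smooth muscle-like and pericyte-like cells were lower in 6 of 20 (8.51% of all genes) and higher in none. Dividing-like epithelial cells were higher than mature cells for Pik3r1 (1.40) and lower for Foxo3 (-1.20) and Irs2 (-1.04), among 17. Over all genes 16% were higher and 11.1% lower, so the pathway list did not stand out here. In enteroendocrine-like cells the protease gene Pappa2 reached 1.74 corrected counts per cell, against 0.0630 over the epithelium.

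For each member with a wild-type class mean of at least 0.5, the genes with the most similar class profile were found over the 15 named wild-type classes, which share 1 library and differ in genes per cell, among 6993 other genes. By Pearson r, Igfbp7 was most like Dlc1 (0.98), Tnfrsf1a (0.96) and Col4a1 (0.96), and Igfbp6 most like Htra3 (0.96), Dpt (0.96) and Clec3b (0.95). Igfbp4 went with Sntb2 (0.94), Cd47 (0.91) and Rhoa (0.895). Igfbp3 went with Calcrl (0.90), Xdh (0.895) and Slco2b1 (0.89), and Igfbp5 with Arhgap10 (0.895), Tgfb3 (0.86) and Wbp1l (0.86). Igf1 was most like Ddr2 (0.90), Ssc5d (0.89) and Hmcn2 (0.88). Igf1r was most like Cdkn2aip (0.92), Trove2 (0.905) and 9530068E07Rik (0.90), and Igf2r most like Arfgap1 (0.855), Gtf3c2 (0.85) and Tmed3 (0.84). These coefficients are descriptions.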

How the data were processed

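The authors aligned reads to mm10 with Cell Ranger and processed them in Seurat 3.1 and R 3.6.2, per the submitters' processing notes and the study's methods. The tables the authors deposited under a raw name hold whole numbers read here, from the values and the methods, as corrected for depth by SCTransform, a score and not plain transcript counts, and the second deposited table is the natural log of 1 plus that value. The authors had filtered cells on genes and mitochondrial share. The wild-type table holds slightly more cells than the study states, and its mitochondrial share reaches 32.1%. The libraries share 1 cell barcode.

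Cells were clustered in Seurat 5.3.0 (R 4.3.3) on the natural log values, with 3000 variable features less the IGF genes (17 and 14), 30 principal components and resolutions of 0.45 and 0.3, giving 20 and 8 clusters. Clusters were named from marker lists. The scoring rule was set after the clusters were seen and before the values of the members were printed. Other stroma and epithelial types were named when their list rose by at least 1 on the log2 scale with 3 markers or more in 10% of cells. Fibroblast and epithelial clusters were recognised by a mean marker detection of at least 60%. CTFs and CBFs were told apart by a gap of at least 1 between the log2 scores of their lists. For CBFs1 and CBFs2 the gap was above 0.5, and neither gap required a least number of markers. In addition, 1 mixed cluster was split with the clusters at a resolution of 0.8. Scrublet (scanpy 1.11.5) called 95 wild-type (1.27%) and 5 reporter cells (0.113%) doublets, which were kept. Levels are mean corrected counts per cell. Ratios add 0.01 to each class mean. Genes needed an average of 0.05, and 2-fold was the rule for a call. Shares have exact Clopper-Pearson 95% intervals (scipy 1.17.1), and a share of 0 is given with the limit of 3 cells. The call was tested on simulated data with planted changes larger than 2-fold, so ratios near 2-fold were not covered. All 10 members were named, the pathway genes only where called or at high levels, and the most alike genes by Pearson correlation. The members and lists were chosen with earlier results of these data known. Alternatives changed the resolution, components, features, doublets, mitochondrial filter, scaling, thinning, pseudocount, filter and threshold.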

Additional observations from a re-analysis of the deposited data

Results flagged for a closer look

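Igfbp7 had opposite signs between the libraries for CTFs-like over CBFs-like cells, with a wild-type log2 ratio of -0.48 and a reporter log2 ratio of 0.07. The difference was not tested, and neither value reached 2-fold. The wild-type value stayed below 0 under every other setting, whereas the reporter value was just below 0 at a resolution of 0.8, with 15 principal components and with the IGF genes kept among the clustering features.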

How the results depend on the processing

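Of 96 recounts of the 10 main results under other settings, 87 lay within 1.5 times the value given, and no called log2 ratio changed sign. A 1.5-fold threshold gave 7 genes apart between CBFs1-like and CBFs2-like cells in each library in place of 4, 6 in place of 3 between endothelial cells and fibroblasts, and 2 in place of 1 between dividing-like and mature epithelial cells. By construction it admits more genes. With 15 principal components the last comparison gave 2 and the endothelial one 5, where no lymphatic class was found. Without the called doublets the epithelial comparison gave 3, as Igfbp3 (-2.26) and Igfbp7 (-1.10) joined, and the cause was not tested. Thinned to 2000 corrected counts it gave 0, since Igf1r (1.09) no longer passed the filter, and the number of members detected in 50% or more of some wild-type class went from 8 to 5, as thinning removes counts. For levels, 4 members were highest in a fibroblast class, and the alternatives gave 3 to 5. These summary counts of levels and shares were chosen after the values were seen, and scaling to class totals cannot change a share. Of 1144 single log2 ratios under other settings, 180 moved by more than the counting error of the shares. The settings without the 60 smooth muscle-like cells and with untyped reporter fibroblasts counted as CBFs-like were added after seeing the data. No paired analysis was possible because each condition is 1 library and no result comes from a test. Low counts limit what can be said of Igf2 and Igfbp2, and few cells limit the rare classes of 20 to 45 cells. Whether depth accounts for the low counts was not tested.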

Other observations

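The 100 unnamed wild-type cells that carried pericyte and blood endothelial markers together held 7.58 corrected counts of Igfbp3 and 58.4 of Igfbp7 per cell, at a median of 3850 genes. The 488 unnamed cells led by Hbb-bs, Hba-a1 and mt-Rnr1 held 0.631 and 4.12, at a median of 1743 genes.

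In glia-like cells Pappa reached 3.77 corrected counts per cell, against 1.09 in CTFs-like cells. Adamts1 was highest in pericyte-like cells at 8.77.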
